A study of Homo sapiens with 6 samples.

Results

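The interferon-stimulated genes measured here are 40 genes that cells switch on in response to interferon. They were followed in MDA-468.shp53 cells. MDA-MB-468, to which that name refers, is a long-established breast cancer line that expresses a mutant p53, and shp53 stands for a short hairpin RNA that targets p53. All 40 were found by their symbol among the gene symbols of the array annotation, on 41 of the 28026 probe sets that hold values and are not controls. The cells were grown in 3-dimensional culture for 8 days, either with doxycycline (+DOX), the drug that is used to switch on such hairpins, or without it (-DOX). The culture was set up in 3 independent experiments, each giving 1 +DOX and 1 -DOX array, so each group held 3 arrays. Both groups carry the hairpin construct. Drug-treated cells that lack it were not analysed here, and hairpin and drug cannot be told apart in any change below. The labels do not say whether the line is 1 clone.

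Interferons are secreted proteins by which a cell that senses viral nucleic acid warns itself and its neighbours. Type I interferon binds the receptor chains IFNAR1 and IFNAR2, the kinases JAK1 and TYK2 then activate STAT factors, among them STAT2, which join IRF9 in a complex (ISGF3) that binds interferon-stimulated response elements in promoters. Type II interferon acts through other receptor chains and through STAT dimers. Epithelial and tumour cells also express many of these genes at a basal level without added interferon, and the products restrict viruses by sensing RNA, degrading it, blocking its translation or trapping particles at membranes.

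Levels were read on Affymetrix gene arrays. Values are log2 expression from the Robust Multichip Average (RMA), changes are +DOX minus -DOX on the log2 scale, and tests are from limma with the experiment as a term. P-values were adjusted by Benjamini-Hochberg over all 28026 probe sets, and a gene passed at an adjusted p under 0.05. Spread is the SD over the 3 arrays of a group, and SE is the moderated standard error of a change. Arrays were of RNA from whole cultures, so less RNA per cell and fewer cells that express a gene cannot be told apart. The files hold no detection call for a probe set, and levels are therefore given only as values on each array and as a percentile among all tested probe sets.

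Markers of breast epithelium were high on all arrays, with the 8 of the list (among them EPCAM, CDH1, KRT5, KRT8 and EGFR) between the 95.4 and 99.8 percentile of probe sets. Of these 8, KRT8 fell with doxycycline (-0.63, SE 0.089, limma adjusted p = 0.00498), and the other 7 did not pass. The changes of KRT19 and KRT7 were -0.37 (SE 0.13) and -0.36 (SE 0.11). Of 6 leukocyte markers, PTPRC, which defines leukocytes, lay at the 6.94 percentile, and CD14 at the 94.6 percentile. CD14 fell by 0.65 with doxycycline (limma adjusted p = 0.00350), whereas the other 5 did not pass. The 6 fibroblast markers lay between the 6.31 percentile (LUM) and the 70.8 percentile (COL1A1), and the 4 endothelial markers between the 25.0 percentile (PECAM1) and the 57.3 percentile (CLDN5). None of these 10 passed. The part of other cells in the results was not tested. The correlation of a +DOX with a -DOX array was 0.983 to 0.991, and that of arrays in the same group was 0.991 to 0.997.

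A larger share of the interferon-stimulated genes was lower with doxycycline than of the whole array, and the change was uneven among them. With doxycycline, 14 of the 40 genes fell, 3 rose and 23 did not pass. Over all tested probe sets, 6.63% fell and 6.14% rose, against 35.0% and 7.50% of the 40 genes. The median log2 change was -0.25 for the 40 genes and -0.01 for all probe sets. Changes in the 40 genes ran between -1.38 for OAS1 and 0.69 for HERC5. A change of at least 2-fold was found as a fall in 3 genes (OAS1, GBP1 and IFI6) and as a rise in none, and over all probe sets 0.899% changed by that size downwards and 0.328% upwards.

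All 3 +DOX arrays lay below all 3 -DOX arrays for 19 of the 40 genes, and above them for 2. Over all probe sets these shares were 13.5% and 11.4%. Within experiments, 22 genes were lower with doxycycline in each of the 3 experiments and 7 were higher in each, against 23.0% and 19.6% of all probe sets, so that 29 of 40 genes, against 42.6% of probe sets, kept their sign. The other 11 genes had differences of both signs, namely OASL, IFIT1, IFIT3, MX1, MX2, STAT2, IRF7, RSAD2, ISG20, XAF1 and IFI27. The median difference of the 40 genes was -0.25 in experiment 1, -0.23 in experiment 2 and -0.16 in experiment 3, and that of all probe sets was 0.01, 0.02 and -0.06 in the same order. Of 21 genes whose mean over the 6 arrays lay at or above the median of all probe sets, 8 fell and 1 rose. Of 19 genes below it, 6 fell and 2 rose. Of all probe sets at or above that median, 10.6% fell and 10.9% rose (21.5% in either direction). Below it, 2.67% fell and 1.36% rose (4.03% in either direction).

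The counts differed with the experiments used. With an experiment left out each group held only 2 arrays. In a drop from the full fit, a loss of power and an effect of that experiment therefore cannot be told apart. These reduced fits all held the same number of arrays, and the differences among them were not tested. Without experiment 1, 13 genes fell and 4 rose (5.13% and 5.05% of all probe sets), without experiment 2, 11 fell and 1 rose (3.77% and 3.04%), and without experiment 3, 8 fell and 1 rose (3.21% and 1.63%). With no experiment term 12 fell and 1 rose (4.64% and 3.96%). The paired test that the study's methods name, at an unadjusted 1%, gave 7 that fell and 3 that rose (2.49% and 1.67%).

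**Figure D1:**
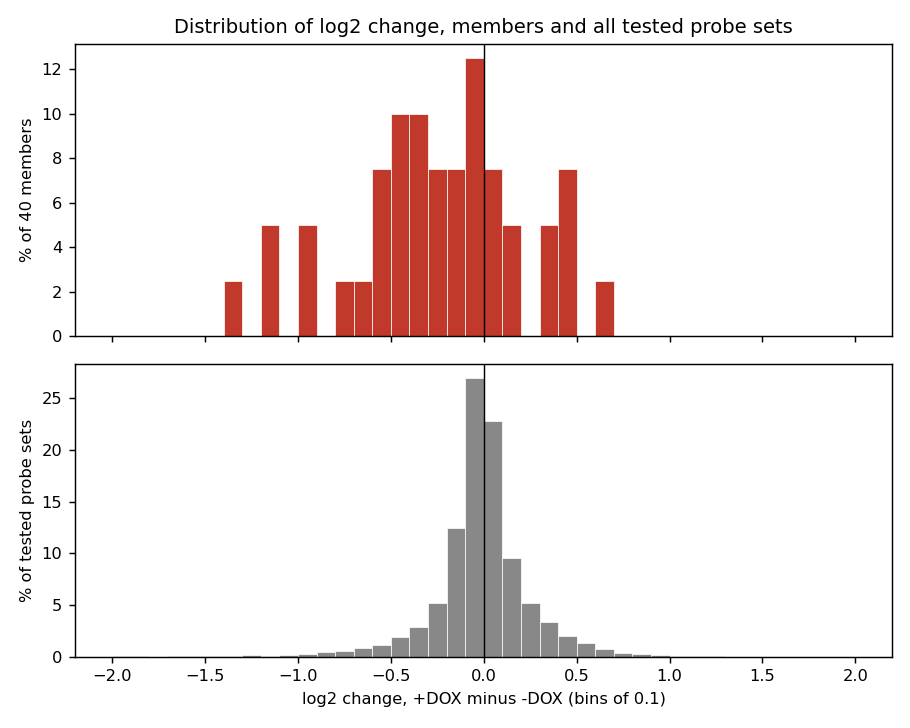
Share of the 40 interferon-stimulated genes (top, red) and of the 28026 tested probe sets (bottom, grey) in bins of 0.1 of the log2 change, +DOX minus -DOX; the 2 vertical axes differ in scale, and probe sets that changed by more than 2 are not drawn. The genes spread between -1.38 and 0.69 with a median of -0.25, while the probe sets centre on -0.01.

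The 2′,5′-oligoadenylate synthetases, which on binding viral RNA make a small signal molecule of linked adenylates, held the largest fall, and of the 8 synthetases and RNA sensors 4 fell and none rose. OAS1 had log2 values of 8.03, 7.99 and 8.08 in +DOX cultures, against 9.07, 9.48 and 9.70 in -DOX cultures of experiments 1, 2 and 3. The groups did not overlap, and the +DOX arrays lay within a much narrower range (SD 0.04) than the -DOX arrays (SD 0.32). OAS1 fell 2.61-fold (log2 change -1.38, SE 0.12, limma adjusted p = 0.00100).

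OAS3 had 7.63, 7.62 and 7.49 in +DOX cultures, against 8.42, 8.66 and 8.61 in -DOX cultures. It fell 1.98-fold (-0.98, SE 0.096, limma adjusted p = 0.00134), with no overlap between the groups. OAS2 had 5.79, 5.94 and 5.91 in +DOX cultures, against 6.23, 6.49 and 6.31 in -DOX cultures. It also fell (-0.46, SE 0.084, limma adjusted p = 0.0125), a call that was lost without experiment 2 or 3 (adjusted p = 0.0790 and 0.0528). OASL, a family member without synthetase activity that enhances RNA sensing by RIG-I, averaged 6.61 ± 0.12 in +DOX cultures and 6.52 ± 0.09 in -DOX cultures (SD, n = 3 each) and did not pass (0.09, SE 0.092, limma adjusted p = 0.666).

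Among the cytosolic RNA sensors, DDX58 encodes RIG-I, and the RefSeq table now names it RIGI. It had 7.27, 7.50 and 7.55 in +DOX cultures, against 7.79, 8.08 and 8.00 in -DOX cultures. Each +DOX array lay below each -DOX array, and DDX58 fell (-0.52, SE 0.083, limma adjusted p = 0.00775). IFIH1 encodes MDA5, the related sensor of long double-stranded RNA. It had 7.99, 8.43 and 8.51 in +DOX cultures, against 7.98, 8.17 and 8.20 in -DOX cultures. The groups overlapped, and IFIH1 did not pass (0.19, SE 0.094, limma adjusted p = 0.276). DDX60, a helicase that has been linked to RIG-I signalling, had a change of -0.09 (SE 0.084) and did not pass either.

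EIF2AK2 encodes the kinase PKR, which stops translation when it binds double-stranded RNA. It had 10.51, 11.02 and 11.06 in +DOX cultures, against 10.45, 10.55 and 10.31 in -DOX cultures. Its values were higher with doxycycline by 0.47 and 0.75 in experiments 2 and 3 and by 0.05 in experiment 1. The gene did not pass (0.43, SE 0.13, limma adjusted p = 0.0829), but did without experiment 1 (0.61, adjusted p = 0.0241).

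**Figure D2:**
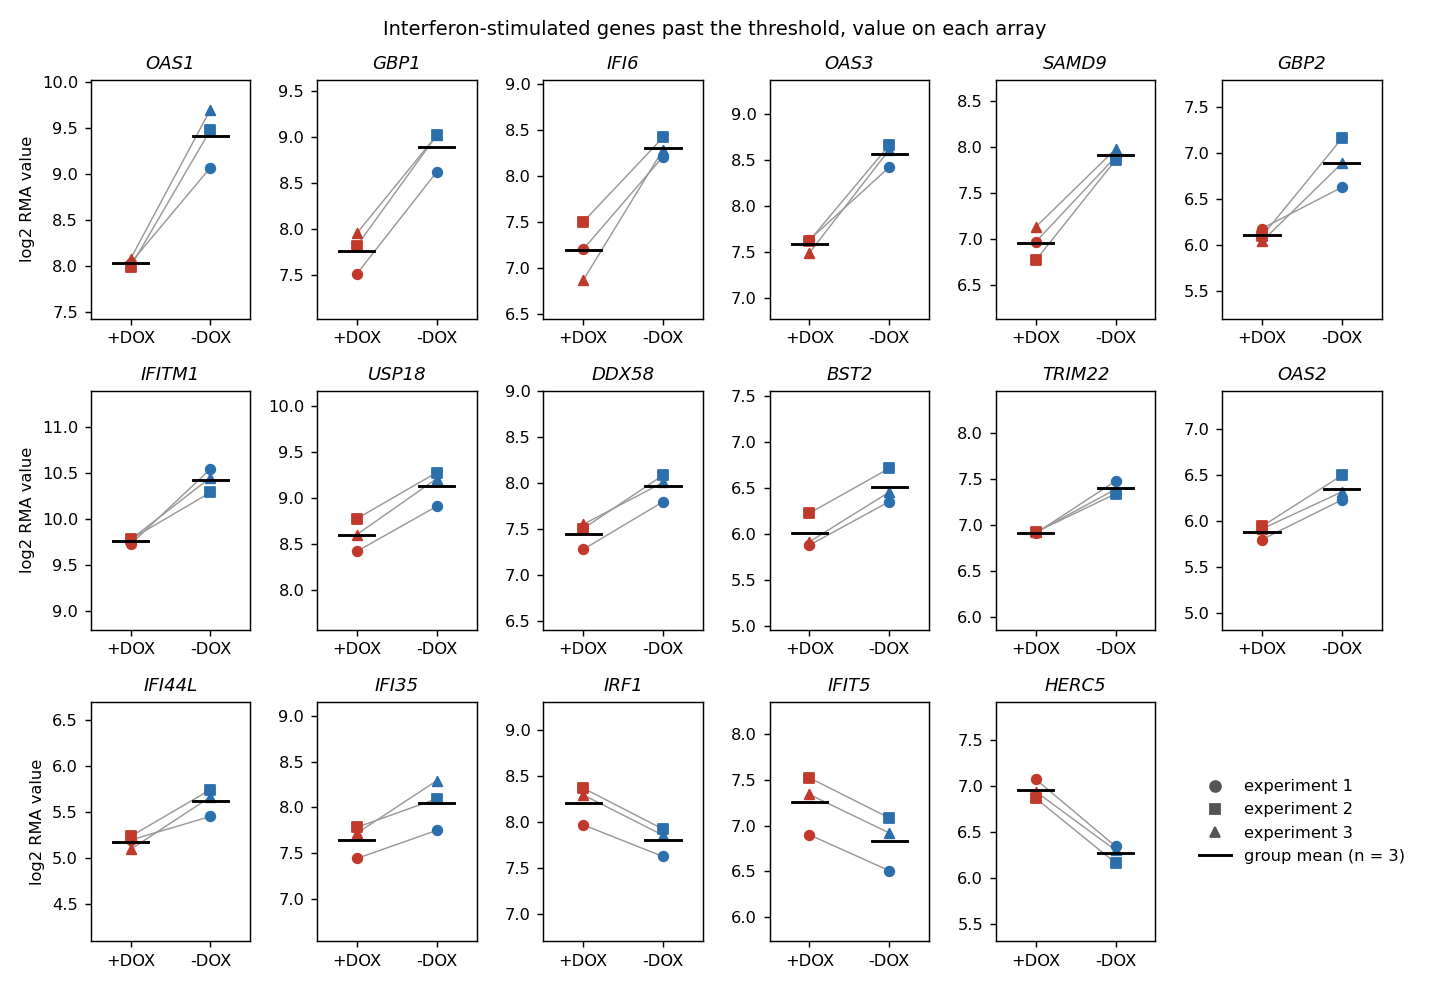
Log2 RMA value on each array (vertical axes of equal length, 2.6 log2 units, set around each gene) of the 17 genes that passed, with +DOX at left in red and -DOX at right in blue; shapes mark the experiment, grey lines join the arrays of an experiment and black bars are group means. All 3 lines run the same way in every panel, 14 down and 3 up in +DOX, while the arrays of the 2 groups overlap for IFIT5 and IFI35.

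The IFIT proteins bind the 5′ ends of foreign RNA and block its translation, and their 4 genes lie side by side on chromosome 10. None of them fell. IFIT5 had 6.90, 7.52 and 7.34 in +DOX cultures, against 6.51, 7.08 and 6.92 in -DOX cultures. The groups overlapped, with experiment 1 lowest in both, and the differences within experiments were 0.39, 0.44 and 0.42. IFIT5 rose (0.42, SE 0.081, limma adjusted p = 0.0161), a call that was lost with any experiment left out (adjusted p = 0.0538 to 0.0864) and with no experiment term (0.283).

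IFIT2 had 5.68, 6.35 and 6.25 in +DOX cultures, against 5.66, 5.75 and 5.82 in -DOX cultures. It did not pass (0.34, SE 0.12, limma adjusted p = 0.117), but did without experiment 1 (0.51, adjusted p = 0.0351), whose 2 arrays differed by 0.01. IFIT1 averaged 5.59 ± 0.20 in +DOX cultures and 5.87 ± 0.25 in -DOX cultures, and IFIT3 averaged 6.54 ± 0.25 in +DOX cultures and 6.53 ± 0.18 in -DOX cultures (SD, n = 3 each). Neither passed (-0.28, SE 0.11, and 0.02, SE 0.093), and the groups overlapped for both.

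Of 4 genes for membrane proteins 2 fell, and all 4 had lower values with doxycycline in each of the 3 experiments. IFITM1, which acts at the cell surface against virus entry, had 9.72, 9.78 and 9.77 in +DOX cultures, against 10.54, 10.29 and 10.45 in -DOX cultures. It fell (-0.67, SE 0.093, limma adjusted p = 0.00479). Its relatives on endosomes, IFITM2 and IFITM3, did not pass. IFITM2 had 7.90, 8.14 and 8.05 in +DOX cultures, against 8.35, 8.28 and 8.50 in -DOX cultures (-0.35, SE 0.098, limma adjusted p = 0.0588). IFITM3 averaged 10.81 ± 0.13 in +DOX cultures and 11.08 ± 0.09 in -DOX cultures (SD, n = 3 each; -0.27, SE 0.10). For IFITM2 and IFITM3 too, all +DOX arrays lay below all -DOX arrays. The 3 genes are close in sequence, and IFITM2 and IFITM3 are read by 15 and 12 probes, so their single values are uncertain. IFITM2 passed when fewer probe sets were tested (adjusted p = 0.0263 among those at or above the median level and 0.0355 among those with a gene symbol).

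BST2 encodes tetherin, which holds budding virus particles at the cell surface. It had 5.88, 6.23 and 5.92 in +DOX cultures, against 6.35, 6.72 and 6.46 in -DOX cultures. It fell by nearly the same amount within each experiment (0.47, 0.49 and 0.54 lower; log2 change -0.50, SE 0.081, limma adjusted p = 0.00830). The call was lost without experiment 3 (adjusted p = 0.0517) and with no experiment term (0.0583).

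Of the large GTPases, the guanylate-binding proteins fell and the MX proteins did not pass. GBP1, a gene known for its strong response to type II interferon, had 7.51, 7.82 and 7.95 in +DOX cultures, against 8.62, 9.02 and 9.02 in -DOX cultures. It fell 2.18-fold (-1.13, SE 0.083, limma adjusted p = 0.000575), with the smallest p among the 40 genes. The annotation of its probe set also lists a non-coding transcript accession, so the value may include another transcript. GBP2 had 6.18, 6.10 and 6.04 in +DOX cultures, against 6.63, 7.16 and 6.89 in -DOX cultures. It fell 1.73-fold (-0.79, SE 0.12, limma adjusted p = 0.00725), a call that was lost without experiment 3 (adjusted p = 0.0610).

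MX1, which traps incoming viral nucleoprotein, averaged 8.05 ± 0.36 in +DOX cultures and 8.17 ± 0.35 in -DOX cultures (SD, n = 3 each). Its change of -0.12 (SE 0.10) did not pass, and it was lower with doxycycline in experiments 1 and 2 (-0.21 and -0.27) and higher in experiment 3 (0.13). MX2, which acts against retroviruses, averaged 6.36 ± 0.05 in +DOX cultures and 6.44 ± 0.06 in -DOX cultures and did not pass (-0.08, SE 0.088).

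ISG15 is a ubiquitin-like protein that is joined to other proteins by the ligase HERC5 and removed by the protease USP18, which also dampens signalling at IFNAR2. ISG15 itself had 8.15, 8.22 and 8.24 in +DOX cultures, against 8.16, 8.33 and 8.25 in -DOX cultures, and did not pass (-0.04, SE 0.082, limma adjusted p = 0.871). USP18 had 8.42, 8.77 and 8.60 in +DOX cultures, against 8.91, 9.28 and 9.21 in -DOX cultures. It fell (-0.53, SE 0.083, limma adjusted p = 0.00707). USP18 is read by 11 probes and has near-identical copies in the genome, so its single value is uncertain.

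HERC5 had 7.08, 6.87 and 6.94 in +DOX cultures, against 6.35, 6.16 and 6.30 in -DOX cultures. The groups did not overlap, and HERC5 rose 1.61-fold, the largest rise among the 40 genes (0.69, SE 0.082, limma adjusted p = 0.00261). HERC6, its neighbour and relative, had 8.04, 7.78 and 7.57 in +DOX cultures, against 7.66, 7.38 and 7.40 in -DOX cultures. It did not pass (0.32, SE 0.089, limma adjusted p = 0.0586), but did under either other scaling of the arrays (adjusted p = 0.0322 with equal array medians and 0.0282 with quantile normalization) and among fewer probe sets (0.0288 and 0.0380).

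Of 4 transcription factors that act in this response, 1 rose and none fell. IRF1, an early target of type II interferon, had 7.97, 8.37 and 8.30 in +DOX cultures, against 7.63, 7.93 and 7.86 in -DOX cultures. It rose (0.41, SE 0.082, limma adjusted p = 0.0180), a call that was lost without experiment 2 or 3 (adjusted p = 0.0991 and 0.0853) and with no experiment term (0.106). IRF9 had 8.04, 8.16 and 8.21 in +DOX cultures, against 8.41, 8.59 and 8.38 in -DOX cultures. All +DOX arrays lay below all -DOX arrays, and IRF9 missed the threshold (-0.32, SE 0.091, limma adjusted p = 0.0592), which it passed among fewer probe sets (0.0286 and 0.0379). STAT2 averaged 8.63 ± 0.16 in +DOX cultures and 8.76 ± 0.07 in -DOX cultures (SD, n = 3 each; -0.13, SE 0.094), and IRF7, which amplifies interferon production, averaged 8.87 ± 0.04 in +DOX cultures and 8.83 ± 0.22 in -DOX cultures (0.03, SE 0.099). Neither passed.

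Among the remaining effectors 5 of 12 fell and none rose. IFI6, a small mitochondrial and endoplasmic reticulum protein that protects cells from apoptosis, had 7.20, 7.50 and 6.86 in +DOX cultures, against 8.21, 8.42 and 8.28 in -DOX cultures. It fell 2.17-fold (-1.12, SE 0.11, limma adjusted p = 0.00158), and here the +DOX arrays spread more (SD 0.32) than the -DOX arrays (SD 0.11). SAMD9, which restricts poxviruses and is mutated in syndromes of bone marrow failure, had 6.96, 6.76 and 7.13 in +DOX cultures, against 7.89, 7.86 and 7.98 in -DOX cultures. It fell 1.94-fold (-0.96, SE 0.089, limma adjusted p = 0.00117). Its neighbour SAMD9L was lower in all 3 experiments and did not pass (-0.23, SE 0.081, limma adjusted p = 0.119).

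TRIM22, a ubiquitin ligase of the tripartite motif family, is the gene of the set with 2 probe sets. The brighter had 6.91, 6.92 and 6.92 in +DOX cultures, against 7.48, 7.34 and 7.39 in -DOX cultures, and it fell (-0.48, SE 0.084, limma adjusted p = 0.0104). The other, annotated from a single cDNA, averaged below it on each array and changed by -0.05 (SE 0.10, limma adjusted p = 0.871). It lies at chr11:5778170-5779103, outside the span of the brighter (chr11:5667495-5688669), and whether it reads TRIM22 was not tested. Over the mean of both the call was lost (-0.27, adjusted p = 0.104), as it was without experiment 3 (0.0553).

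IFI44L had 5.19, 5.23 and 5.09 in +DOX cultures, against 5.45, 5.74 and 5.66 in -DOX cultures. It fell (-0.45, SE 0.095, limma adjusted p = 0.0219), a call that was lost without experiment 2 or 3 (adjusted p = 0.105 and 0.115). Its neighbour IFI44 averaged 4.56 ± 0.20 in +DOX cultures and 4.98 ± 0.40 in -DOX cultures (SD, n = 3 each) and did not pass (-0.42, SE 0.14), with differences of -0.42, -0.80 and -0.04 in the 3 experiments. IFI35 had 7.45, 7.78 and 7.72 in +DOX cultures, against 7.75, 8.10 and 8.29 in -DOX cultures. The groups overlapped, and its fall (-0.40, SE 0.092, limma adjusted p = 0.0313) was lost with any experiment left out (adjusted p = 0.0666 to 0.140) and with no experiment term (0.183).

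PARP9, an ADP-ribosyltransferase that enhances interferon signalling, had 7.54, 7.65 and 7.68 in +DOX cultures, against 7.85, 8.16 and 7.87 in -DOX cultures. The groups did not overlap, but it missed the threshold (-0.34, SE 0.094, limma adjusted p = 0.0573), which it passed among fewer probe sets (0.0265 and 0.0355). RSAD2 (viperin, -0.02, SE 0.090), IFI27 (-0.01, SE 0.081), XAF1 (a regulator of apoptosis, -0.11, SE 0.096) and ISG20 (an exonuclease, 0.19, SE 0.095) did not pass. IFI27 lay between 7.17 and 7.23 on all 6 arrays, and RSAD2 between 5.16 and 5.49.

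**Figure D3:**
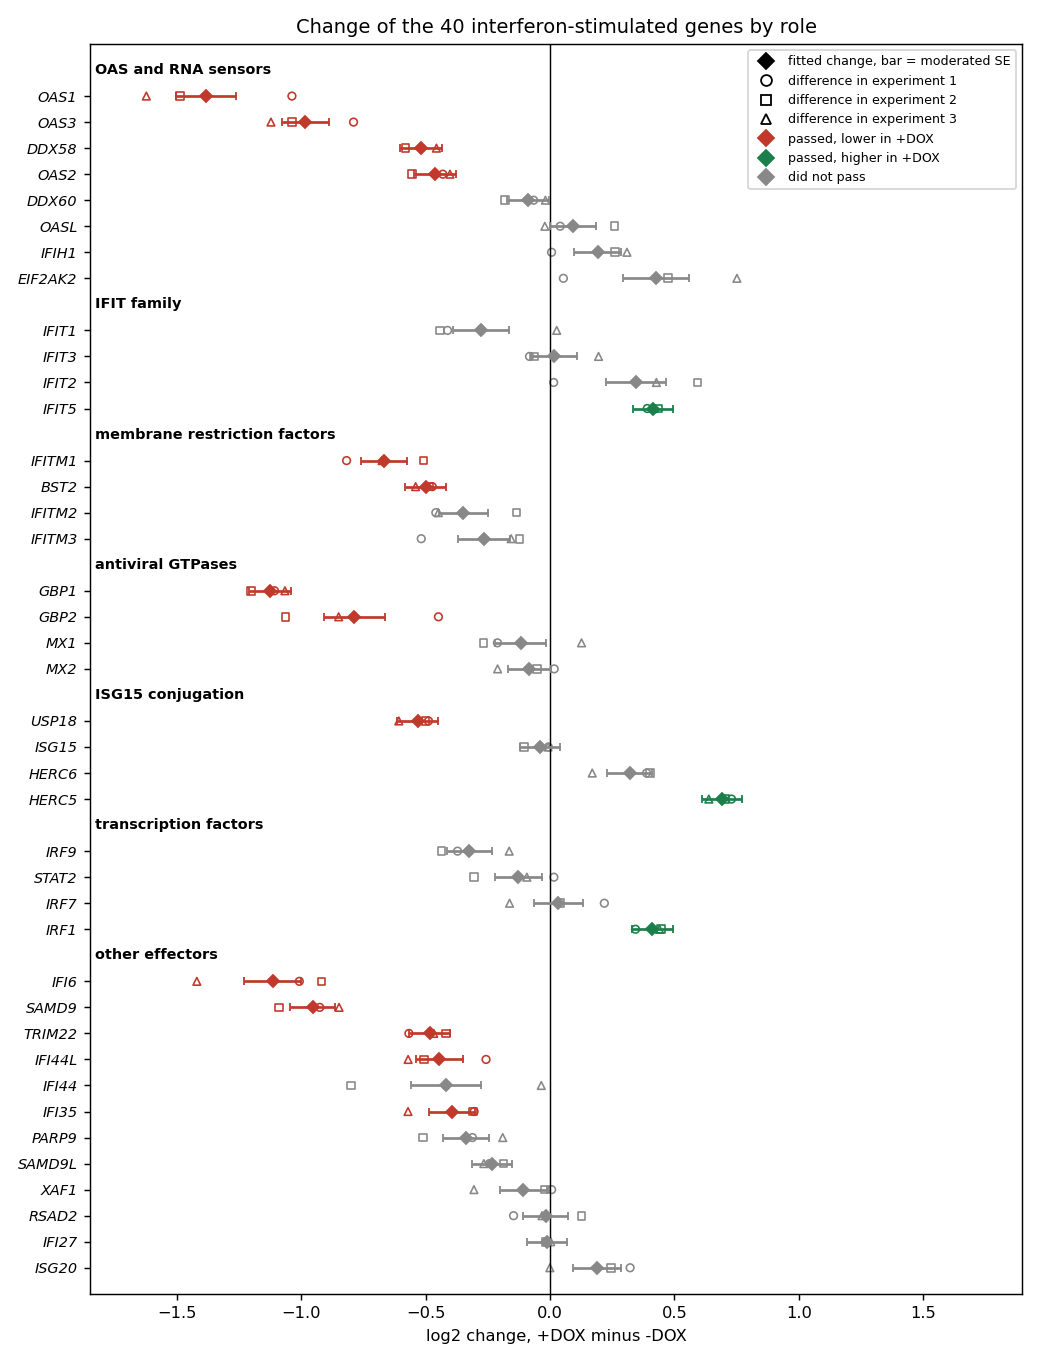
Fitted log2 change, +DOX minus -DOX (filled diamonds, bars are moderated SE), of the 40 genes grouped by role, with the difference in each experiment as open symbols; red genes passed as lower, green as higher and grey did not pass. OAS1 stands furthest left at -1.38 and HERC5 furthest right at 0.69. The membrane factors and the GTPases lie left of 0, and the other 5 groups hold genes on both sides of it.

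Of the 14 that fell, 8 kept their call under every limma alternative run for them (scaling, filter, variance, experiment term and left-out experiment), namely OAS1, OAS3, DDX58, IFITM1, GBP1, USP18, SAMD9 and IFI6. Of the 3 that rose, HERC5 did. SAMD9 and HERC5 lie below the median level, so the filter at that level gave no value for them. In that paired test OAS1, OAS3, IFITM1 and IFI6 did not reach 1% (unadjusted p of 0.0160, 0.0101, 0.0174 and 0.0186). A further 6 genes passed under some alternative only (EIF2AK2, IFIT2, IFITM2, HERC6, IRF9 and PARP9).

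Many of the 40 genes arose by local duplication and lie side by side. In the coordinates of the array annotation, which match NCBI build 36, OAS1, OAS3 and OAS2 span 104.8 kb at chr12:111829122-111933911, and all 3 fell, with changes between -1.38 and -0.46. GBP1 and GBP2 span 73.8 kb at chr1:89290589-89364387, and both fell. IFI44L and IFI44 span 43.6 kb at chr1:78858704-78902351 and changed by -0.45 and -0.42, and of these IFI44L passed. MX2 and MX1 span 97.2 kb at chr21:41655820-41753011, and IFITM2, IFITM1 and IFITM3 span 13.1 kb at chr11:297915-311050. Neither MX gene passed, and of the 3 IFITM genes 1 fell. IFIT2, IFIT3, IFIT1 and IFIT5 span 119.0 kb at chr10:91051692-91170738, with changes between -0.28 and 0.42 and 1 rise. SAMD9 and SAMD9L span 48.8 kb at chr7:92566767-92615616 and changed by -0.96 and -0.23. HERC6 and HERC5 span 127.4 kb at chr4:89518915-89646337 and changed by 0.32 and 0.69. Differences between neighbours were not tested.

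The promoters of the genes were read for the element by which ISGF3 and the IRF factors bind DNA. RefSeq windows (build GRCh38.p14) from 250 bases before to 50 bases after the start site were at hand for 31 of the 40 genes. The motif searched was GAAA, any 2 bases and GAAA again, on both strands, the core of the interferon-stimulated response element. It was present in 7 of 10 genes that fell, 2 of 3 that rose and 13 of 18 that did not pass. This makes 22 of 31 genes, or 71.0%, against 4.38% of the 27305 genes with such a window, or 3.57% of windows. The same motif followed by C, a subset of those matches, was found in 5 of 10, 2 of 3 and 12 of 18 genes in the same order, and in 0.952% of all genes. The motif TTCNNNGAA, the form bound by STAT dimers, was found in 4 of 10, 1 of 3 and 4 of 18 genes, and in 9.38% of all genes. The 40 genes are known for such elements, so their share is a description. A match is not a bound site. The first motif was absent from the windows of OAS1, DDX58 and IFI35, which fell, and of IRF1, which rose. It was also absent from those of HERC6, STAT2, IRF9, SAMD9L and XAF1, which did not pass.

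To show that genes of each outcome carry the element, windows are given below of OAS3, IFI6 and SAMD9, which fell, of IFIT5 and HERC5, which rose, and of ISG15, which did not pass. Capitals mark this motif or its reverse complement (TTTC, any 2 bases, TTTC), and overlapping matches run together. The windows are chr12:112938224-112938523 (+ strand), chr1:27672143-27672442 (- strand), chr7:93117930-93118229 (- strand), chr10:89414318-89414617 (+ strand), chr4:88456869-88457168 (+ strand) and chr1:1013247-1013546 (+ strand), each written from 5′ to 3′ along its gene.
OAS3: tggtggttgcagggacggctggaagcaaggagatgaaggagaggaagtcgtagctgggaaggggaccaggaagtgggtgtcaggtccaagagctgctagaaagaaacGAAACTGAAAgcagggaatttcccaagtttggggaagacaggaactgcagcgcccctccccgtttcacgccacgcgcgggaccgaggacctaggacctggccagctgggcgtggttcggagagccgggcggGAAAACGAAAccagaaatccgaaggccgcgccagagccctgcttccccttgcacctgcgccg
IFI6: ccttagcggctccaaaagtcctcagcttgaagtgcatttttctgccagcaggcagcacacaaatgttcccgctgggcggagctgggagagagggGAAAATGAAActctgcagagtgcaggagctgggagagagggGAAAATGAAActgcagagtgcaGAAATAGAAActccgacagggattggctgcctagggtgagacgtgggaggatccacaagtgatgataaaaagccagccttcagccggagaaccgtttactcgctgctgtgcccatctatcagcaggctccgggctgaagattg
SAMD9: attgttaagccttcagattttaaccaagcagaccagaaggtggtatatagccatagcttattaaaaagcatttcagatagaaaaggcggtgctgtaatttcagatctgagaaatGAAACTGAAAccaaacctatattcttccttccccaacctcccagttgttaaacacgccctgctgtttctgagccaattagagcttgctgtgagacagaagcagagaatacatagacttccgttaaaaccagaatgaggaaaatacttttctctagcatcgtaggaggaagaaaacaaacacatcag
IFIT5: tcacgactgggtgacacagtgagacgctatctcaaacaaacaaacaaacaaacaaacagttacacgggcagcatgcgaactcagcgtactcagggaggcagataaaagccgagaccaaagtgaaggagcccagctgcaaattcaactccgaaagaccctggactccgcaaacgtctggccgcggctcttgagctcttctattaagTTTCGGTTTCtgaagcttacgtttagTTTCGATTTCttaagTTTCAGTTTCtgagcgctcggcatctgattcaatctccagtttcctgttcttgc
HERC5: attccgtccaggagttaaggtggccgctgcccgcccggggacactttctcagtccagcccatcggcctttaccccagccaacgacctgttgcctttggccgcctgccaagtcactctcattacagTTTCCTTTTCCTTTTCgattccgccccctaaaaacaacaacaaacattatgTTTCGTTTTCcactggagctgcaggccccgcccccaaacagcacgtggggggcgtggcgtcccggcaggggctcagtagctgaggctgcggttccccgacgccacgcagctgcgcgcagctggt
ISG15: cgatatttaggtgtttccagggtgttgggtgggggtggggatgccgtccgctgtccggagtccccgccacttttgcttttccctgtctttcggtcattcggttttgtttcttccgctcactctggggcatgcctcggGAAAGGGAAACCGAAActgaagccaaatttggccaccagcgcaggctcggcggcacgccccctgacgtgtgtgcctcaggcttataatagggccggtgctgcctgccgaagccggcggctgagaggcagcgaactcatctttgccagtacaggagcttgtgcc

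Counted from the start site as 0, the matches begin at -143 and -12 in OAS3, at -156, -115 and -93 in IFI6 and at -136 in SAMD9. They begin at -45, -19 and -4 in IFIT5, at -125, -119 and -74 in HERC5 and at -113 and -107 in ISG15. OAS3 and SAMD9 carry the same 10 letters, GAAACTGAAA, in 1 match each. In IFIT5 and HERC5 all matches are of the TTTC form along the gene, and in the other 4 genes all are of the GAAA form. These windows were picked as examples. The form was not counted over the remaining genes, and its relation to the outcome was not tested.

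The other genes of the pathway showed fewer calls. Of 15 genes of receptors, JAK kinases and STAT factors, 3 fell and 1 rose, with a median of -0.10. IFNAR2, the signalling chain of the type I receptor, had 8.00, 7.66 and 7.96 in +DOX cultures, against 8.62, 8.52 and 8.34 in -DOX cultures. It fell (-0.62, SE 0.11, limma adjusted p = 0.0107), a call that was lost without experiment 2 (adjusted p = 0.0508). IFNGR2, a chain of the type II receptor, and STAT3, which serves many cytokines, fell by smaller amounts (-0.32, SE 0.082, and -0.35, SE 0.081). Both calls were lost with any experiment left out (adjusted p = 0.0970 to 0.150) and with equal array medians (0.0701 and 0.0589), and that of IFNGR2 with no experiment term (0.0756). JAK1 rose (0.51, SE 0.11, limma adjusted p = 0.0218), a call lost without experiment 2 or 3 (0.0961 and 0.124). IFNAR1 (-0.03, SE 0.089) and TYK2 (-0.17, SE 0.12) did not pass.

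Of 17 genes that sense nucleic acid upstream of interferon, 3 fell and none rose, with a median of -0.04. IKBKE, a kinase that activates IRF factors, had 8.50, 8.54 and 8.50 in +DOX cultures, against 9.29, 9.71 and 9.74 in -DOX cultures. It fell 2.09-fold (-1.06, SE 0.11, limma adjusted p = 0.00158), with +DOX arrays in a narrow range, as for OAS1. STING1, the adaptor for cytosolic DNA, had 8.84, 8.72 and 8.62 in +DOX cultures, against 9.40, 9.62 and 9.38 in -DOX cultures, and fell (-0.74, SE 0.095, limma adjusted p = 0.00363). MYD88, the adaptor of Toll-like receptors, also fell (-0.53, SE 0.085, limma adjusted p = 0.00800). TBK1, the relative of IKBKE, changed by 0.26 (SE 0.12) and did not pass, nor did IRF3 (0.03, SE 0.083), MAVS (-0.04, SE 0.085) or CGAS (-0.18, SE 0.11).

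None of 10 interferon genes passed, and their changes lay between -0.11 and 0.19. The levels of these 10 genes lay between the 7.80 and the 71.0 percentile of probe sets. IFNB1 averaged 4.87 ± 0.04 in +DOX cultures and 4.69 ± 0.17 in -DOX cultures (SD, n = 3 each) and lay at the 13.1 percentile of probe sets (0.19, SE 0.10, limma adjusted p = 0.337). All its +DOX arrays lay above all its -DOX arrays, with differences of 0.07, 0.43 and 0.07 in experiments 1, 2 and 3. Interferon protein was not measured.

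Of 30 further interferon-induced genes, 3 fell and 3 rose, with a median of -0.10. SAMHD1, which degrades deoxynucleotides, had 6.43, 6.86 and 6.94 in +DOX cultures, against 7.98, 8.25 and 8.10 in -DOX cultures. It fell 2.57-fold (-1.36, SE 0.10, limma adjusted p = 0.000560). CXCL10, a chemokine for T cells, fell (-0.67, SE 0.12, limma adjusted p = 0.0101), as did the secreted glycoprotein LGALS3BP (-0.62, SE 0.11, limma adjusted p = 0.0132). CXCL10 lay at the 12.6 percentile of probe sets and LGALS3BP at the 93.4 percentile. CXCL10 had 4.45, 4.41 and 4.36 in +DOX cultures, against 4.83, 5.12 and 5.29 in -DOX cultures. The call of CXCL10 was lost without experiment 3 (adjusted p = 0.0629) and that of LGALS3BP without experiment 2 or 3 (0.0565 and 0.0621). PLSCR1, a phospholipid scramblase, had 10.18, 10.64 and 10.73 in +DOX cultures, against 9.59, 9.59 and 9.71 in -DOX cultures. It rose 1.85-fold (0.89, SE 0.11, limma adjusted p = 0.00330), more than any of the 40 genes. PNPT1, a mitochondrial RNA exonuclease (0.62, SE 0.086), and APOL6 (0.53, SE 0.10) also rose, and the call of APOL6 was lost without experiment 2 or 3 (adjusted p = 0.0751 and 0.0986). Over the 4 lists, 9 of 72 genes fell and 4 rose, or 12.5% and 5.56%, beside 6.63% and 6.14% of all probe sets.

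**Figure D4:**
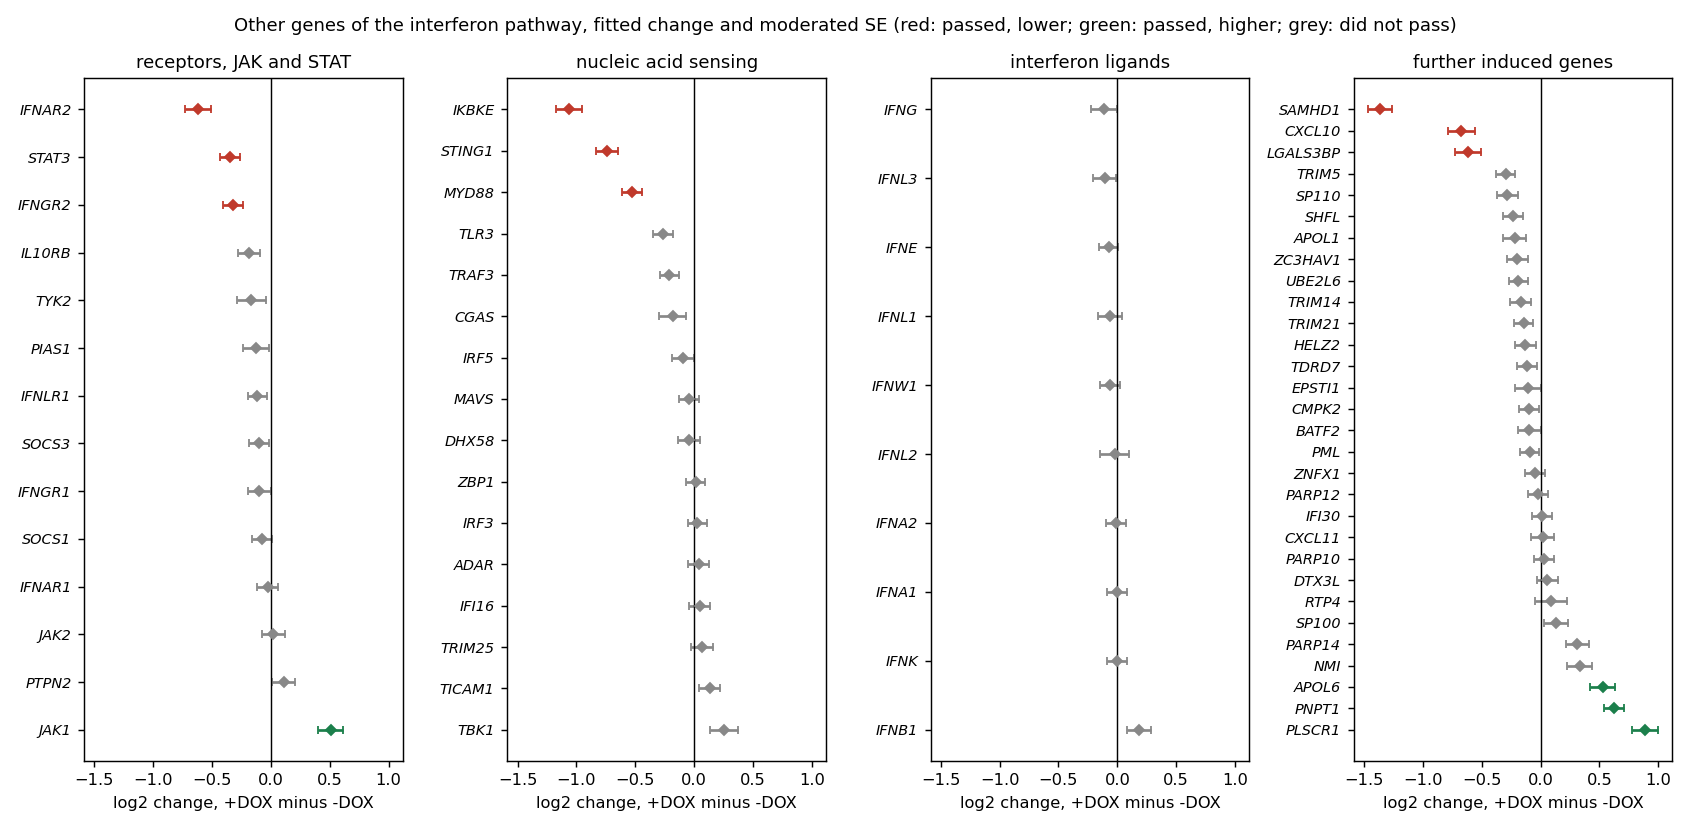
Fitted log2 change, +DOX minus -DOX, with moderated SE of other genes of the interferon pathway in 4 lists, with some genes of the first 2 lists left out; red genes passed as lower, green as higher and grey did not pass. SAMHD1 (-1.36) and IKBKE (-1.06) stand furthest left and PLSCR1 (0.89) furthest right, while the 10 interferon genes lie between -0.11 and 0.19.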

How the data were processed

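Total RNA of MDA-468.shp53 cells was hybridised to 6 arrays, per the labels' protocols. The deposited values are on a log2 scale and, per the design text and the submitters' processing notes, were made by the authors with RMA in R 2.11.1. The authors' workbook repeats these log2 values (differing by at most 5.00e-09) and adds gene symbols, accessions and coordinates. Its value columns carry no replicate number and were used only for that comparison. Their names carry tags that each pair a +DOX with a -DOX column, and these tags were not matched to the experiment numbers. Of 33297 probe sets, 4428 were controls, and 843 others were empty. The remaining 28026 were fitted in limma 3.58.1 under R 4.3.3 (lmFit, eBayes) with the experiment as a term, since the design text describes 3 independent experiments and a paired test. Deviations from the group means correlated between paired arrays at 0.482, 0.165 and 0.0993. No value for arrays of different experiments stands beside these, so they cannot show whether the pairing is right. The fit was tested on simulated data drawn from its own variance model. Such data cannot show whether that model holds for these arrays. On arrays the number of arrays, not depth, limits the precision.

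The 40 genes, the lists and the motifs were chosen with earlier results of these data known, so no list was tested. A gene was represented by its probe set with the highest mean (TRIM22). All 40 were to be named, and of the 4 pathway lists each gene that passed, up to 6 per list. Outside this rule, 7 pathway genes that did not pass (IFNAR1, TYK2, TBK1, IRF3, MAVS, CGAS and IFNB1) were named for their role after their values were seen. Older symbols of 9 pathway genes were matched through RefSeq (GRCh38.p14). The probe set of the hairpin's target and some genes of the pathway lists are not reported here. Alternatives were no experiment term, each experiment left out, other scalings, fewer probe sets, a trended and robust variance, the methods' paired t-test at 1%, and the mean over probe sets of a gene.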

Additional observations from a re-analysis of the deposited data

How the results depend on the processing

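No result of the 40 genes with a call changed direction under any alternative run. The count of those that fell was 14, and 8 to 13 with an experiment left out, lowest without experiment 3, whereas the methods' t-test at 1% gave 7. The count that rose was 3, and 1 to 4 with an experiment left out (1 without experiment 2 or 3). With no replicate block it was 1. Among the 21727 probe sets with a gene symbol, 17 of the 40 genes fell and 5 rose, beside 2026 and 2108 of those probe sets. Without the replicate block 12 genes fell. The median of -0.25 was -0.20 to -0.27 with an experiment left out and -0.32 over genes at or above the median level, where fewer genes enter. It was -0.21 with equal array medians and -0.23 with quantile normalization. The array medians in experiments 1, 2 and 3 were 7.505, 7.483 and 7.45 for +DOX, against 7.511, 7.481 and 7.56 for -DOX. Over all probe sets 1859 fell and 1721 rose. With an experiment left out, 899 to 1437 fell and 456 to 1416 rose, 1109 rose with no replicate block, and the methods' t-test at 1% gave 697 and 468, with 0 calls after Benjamini-Hochberg adjustment and 4449 probe sets at an unadjusted p under 0.05. It called 10 of the 40 genes at 1% and 18 at 0.05. In the pathway lists, tried after the values were seen, 5 to 7 fell and 2 to 5 rose with an experiment left out, against 9 and 4, and the methods' t-test gave 1 rise. Of genes that did not pass, 4 changed sign. IFIT3 ran between -0.0742 and 0.0647, IRF7 between -0.0607 and 0.130 and RSAD2 between -0.0896 and 0.0468 with an experiment left out. RSAD2 was 0.0204 with equal array medians and 0.00793 with quantile normalization, and IFI27 was 0.0272 and 0.0156. The cause was not tested.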
